A study of Mus musculus with 10 samples.

Results

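Nnt and 9 genes of mitochondrial and other antioxidant enzymes were examined in the hearts of male mice exposed before birth to anti-Müllerian hormone (AMH). The 10 genes, of 55335 in the deposited table, were found by matching Ensembl identifiers to the GENCODE vM21 symbols Nnt, Sod1, Sod2, Cat, Gpx1, Gpx3, Gpx4, Prdx3, Prdx5 and Txnrd2. They had been chosen by the same PAMH and control values that are given here, so their differences between the groups are described and not tested. RNA-seq was run on bulk heart tissue of wild-type male offspring, in 5 PAMH samples from dams given AMH in pregnancy and 5 control samples from dams given phosphate-buffered saline. Raised AMH before birth is one way to model polycystic ovary syndrome in mice. The PAMH and control hearts share the tissue, the sex and the wild-type genotype, and the labels give no strain, age, litter or dam. Samples are not tied to separate animals or litters, so the p-values given for other genes measure only the spread between these samples, which may be partly technical.

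Nnt encodes nicotinamide nucleotide transhydrogenase, an enzyme of the inner mitochondrial membrane that uses the proton gradient to make NADPH from NADH. NADPH keeps glutathione and thioredoxin reduced, and these feed the glutathione peroxidases and peroxiredoxins that remove hydrogen peroxide, while the superoxide dismutases turn superoxide into that peroxide and catalase breaks it down without NADPH. The heart, with its dense mitochondria, depends on this chain, and Nnt is known for a multi-exon deletion in the mouse substrain C57BL/6J, the source of the reference genome. Whether these mice carry that deletion is not given in the labels, so the Nnt values may be of an intact or of a deleted allele. The Nnt transcripts described below are annotated on that reference genome, and exons missing from it would not be counted in these FPKM. None of these transcripts is taken here as the intact or the deleted form.

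Levels are the deposited FPKM (fragments scaled by transcript length and by each sample's mapped total). Differences are PAMH minus control in log2(FPKM + 1), with the standard error (SE) of a limma model fitted to the 9439 genes that averaged 1 FPKM or more. All 10 genes passed this filter. The FPKM state no depth, but the spacing of low values of single-transcript genes implied 17610000 to 40490000 fragments in the PAMH samples and 26880000 to 47390000 in the controls, a rough guide to relative depth. The spacing was searched only within a set range, so the implied depths could not fall outside fixed bounds. PAMH replicates 4 and 5 had the lowest implied depths, 17610000 and 17790000 fragments, and also the fewest genes above 0, 16113 and 18037. The cardiomyocyte markers, 10 genes that include Myh6, Tnnt2 and Actc1, summed to 9244 to 15249 FPKM in PAMH samples and 10438 to 13083 FPKM in controls, and 0 of the 10 passed the limma test (3 at an unadjusted p under 0.05). PAMH replicate 4 had a sum of 867 FPKM over 8 erythroid markers, where the other PAMH samples had 101 to 255 FPKM and controls had 114 to 441 FPKM. PAMH replicate 3 had the lowest cardiomyocyte sum, and results that rest on it are given with and without it.

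Nnt has 2 annotated entries over the same stretch of the minus strand of chromosome 13 (GRCm38, the build mm10). The identifier ENSMUSG00000025453 spans chr13:119335448-119408997 and has 5 transcripts, and ENSMUSG00000116207 spans chr13:119335528-119408952 and has 1, Nnt-206. Nnt-206 has 17 exons and 3339 bases, and all of its bases lie within the 3464 bases of Nnt-202 under the first identifier. The transcripts Nnt-202 and Nnt-206 share all 16 exon junctions and have coding sequences of the same 2505 bases in length. Nnt-201, also under the first identifier, has 15 exons and a coding sequence of 2163 bases. Of its 14 junctions, 1 is absent from Nnt-206. That junction joins exon 7 directly to the exon that is exon 10 in Nnt-202. The coding bases around the junctions that separate Nnt-201 from Nnt-202 and Nnt-206 are printed because no junction separates Nnt-202 from Nnt-206. They come from the GENCODE vM21 transcripts, 5′ to 3′, with lower case for the upstream exon and capitals for the downstream exon.
Nnt-201, exon 7 to 8: cagctctgattccagGCCTGACGATCGCAA
Nnt-202 and Nnt-206, exon 7 to 8: cagctctgattccagGTGGTTTTCTGGTGA
Nnt-202 and Nnt-206, exon 8 to 9: tataacatcgaagaaATCATGTACCTGGGC
Nnt-202 and Nnt-206, exon 9 to 10: tgggtggcaccatcgGCCTGACGATCGCAA

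The FPKM of Nnt sat almost wholly on one identifier or the other, and which one it was varied within both groups. ENSMUSG00000025453 had 3.29, 73.3, 56.2, 66.3 and 5.0 FPKM in PAMH replicates 1 to 5, against 41.9, 3.15, 63.4, 42.5 and 62.2 FPKM in control replicates 1 to 5. ENSMUSG00000116207 had 113 FPKM in PAMH replicate 1 and 61.3 FPKM in PAMH replicate 5, against 115 FPKM in control replicate 2, and was listed at 0 in the other 7 samples. The second identifier thus held 97.2% and 92.5% of the summed FPKM in those PAMH samples and 97.3% in that control sample. Read by identifier, Nnt would appear to be nearly lost in 3 hearts, and the sum over both identifiers shows no such loss. How the authors divided reads between overlapping genes is not given in the sources used here, and summed FPKM are approximate because FPKM are divided by length and the lengths used are not given either.

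**Figure D1:**
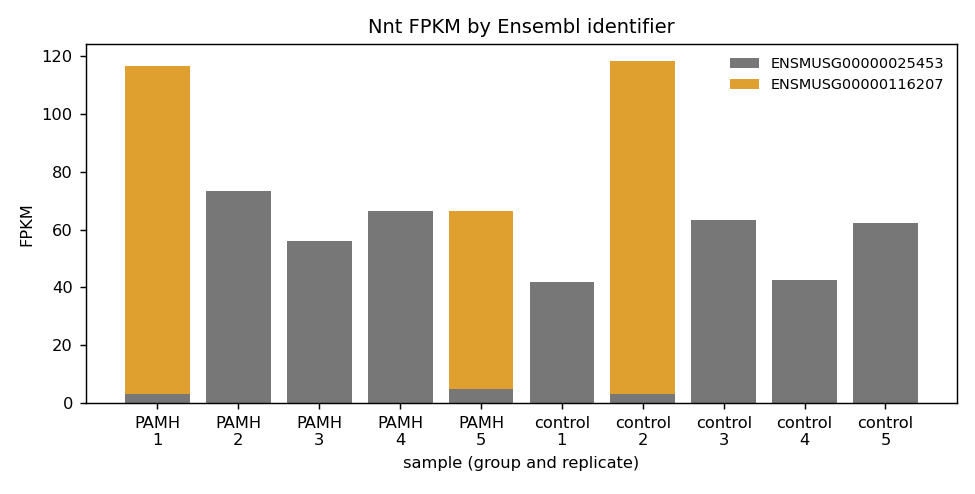
Deposited FPKM of Nnt in each sample (vertical axis, from 0), stacked by Ensembl identifier, with PAMH replicates left of control replicates. PAMH replicates 1 and 5 and control replicate 2 carry nearly all of their Nnt FPKM on ENSMUSG00000116207, and the other 7 samples carry all of it on ENSMUSG00000025453.

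Summed over both identifiers, Nnt had 116, 73.3, 56.2, 66.3 and 66.3 FPKM in PAMH replicates 1 to 5, against 41.9, 118, 63.4, 42.5 and 62.2 FPKM in control replicates 1 to 5. The groups overlapped, and the lowest and the highest of the 10 sums were both control samples, 2.82-fold apart. The means were 75.6 ± 23.3 FPKM in PAMH hearts and 65.6 ± 31.1 FPKM in control hearts (SD, n = 5 each), a log2 difference of 0.26 with an SE of 0.26. Single samples moved this value by more than 1.5 times. It was 0.10 without PAMH replicate 1, 0.13 without control replicate 1, 0.14 without control replicate 4 and 0.50 without control replicate 2. It was also 0.13 with quantile normalization, 0.17 with median ratio scaling and 0.49 with sample weights. The sums in the 3 samples that used the second identifier were 66.3 to 118 FPKM, and those in the 7 others were 41.9 to 73.3 FPKM, so the identifier in use and the level of the sum moved together in part; the part of one in the other was not tested.

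The summed Nnt FPKM varied more between samples of one group than those of nearly all other genes did. The within-group SD of its summed level was 0.51 in log2(FPKM + 1), where the median over the tested genes was 0.15 and 98.6% of them had a smaller SD. Among the 2199 tested genes averaging 10 FPKM or more, 40 had a larger within-group SD. Each Nnt identifier counted as a gene of its own in these comparisons, and both are among the 40. The other 9 genes had SDs of 0.06 to 0.45, the highest being that of Gpx3. The sums furthest from the rest, 116 FPKM in PAMH replicate 1 and 118 FPKM in control replicate 2, lay almost wholly on the second Nnt identifier. The 7 samples on the first identifier had sums of 41.9 to 73.3 FPKM. The lengths by which the identifiers were divided are not given, and their part in this spread was not tested.

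The switch between identifiers was looked for in the whole table. Pairs of identifiers were taken that had the same symbol and strand and shared most exonic bases of the shorter entry. There were 43 such pairs with any FPKM, 14 of them with a summed mean of at least 1 FPKM. In 3 of these 14 the second identifier held under 10% of the sum in at least 1 sample and over 90% in at least 1 other. These were Nnt, the septin gene Sept2 and the microRNA gene Mir677, the last 2 named after their values were seen. For Sept2, whose second entry also lies wholly within the exons of the first (3335 shared bases), the share ran from 0% to 95.5%.

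By mean level over the 10 samples, which FPKM give per length, Gpx4 was highest at 273 FPKM, followed by Prdx3 at 152, Prdx5 at 98.5, Gpx3 at 79.7, Nnt at 70.6 and Cat at 54.9 FPKM. Sod1 and Sod2 came next at 34.1 FPKM each, then Gpx1 at 28.2 and Txnrd2 at 4.22 FPKM. The values of Gpx4, Prdx3 and Prdx5 did not overlap with each other. Prdx5 overlapped with Gpx3, Gpx3 with Nnt, and Nnt with Cat. Cat, at 49.0 FPKM or more, lay above Sod1 and Sod2, at up to 41.7 and 37.2 FPKM. Sod1 overlapped with Sod2 and with Gpx1, while all values of Txnrd2 lay far under those of Gpx1.

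**Figure D2:**
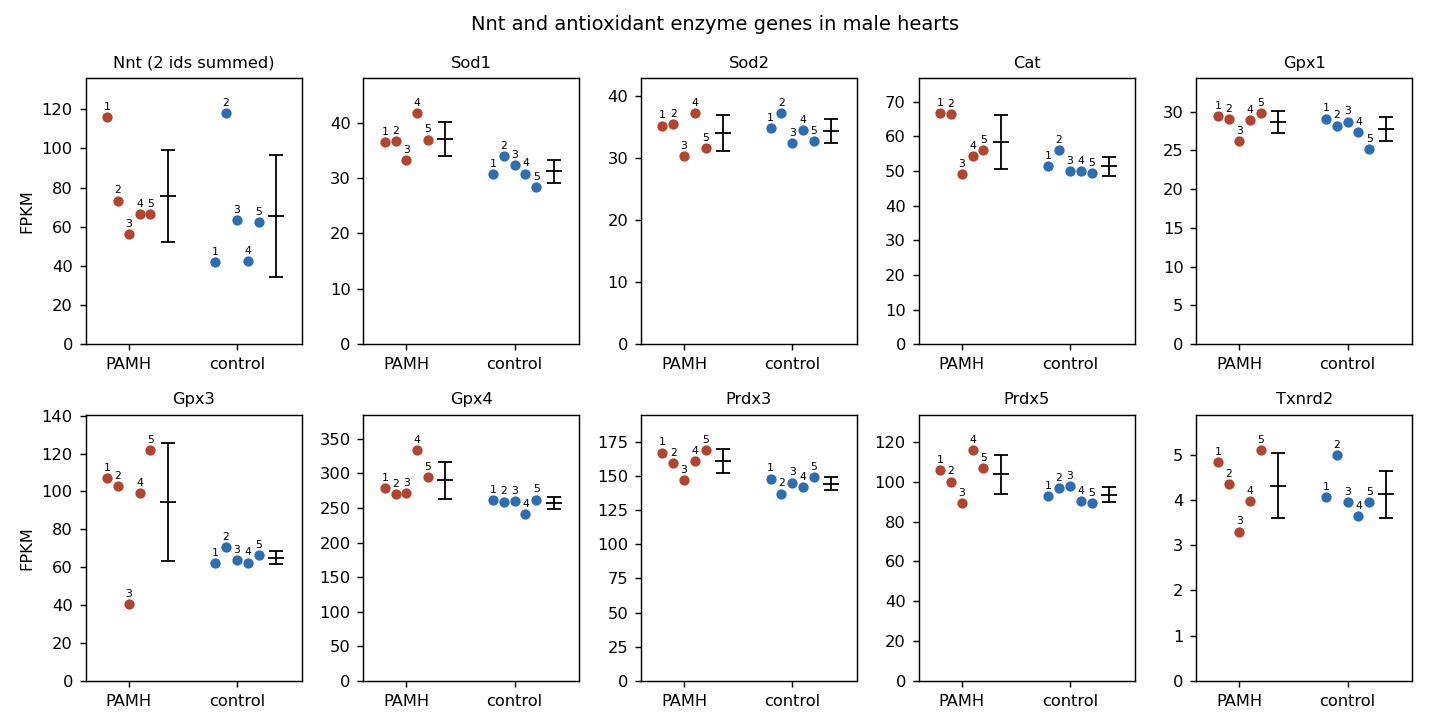
Deposited FPKM of the summed Nnt and the 9 antioxidant enzyme genes in each sample (points, numbered by replicate) with the mean and SD of each group beside them, PAMH left of control, each vertical axis starting at 0. Gpx4 is the only gene here whose PAMH values all lie above its control values, and PAMH replicate 3 is the lowest PAMH sample in 8 of the 9 enzyme genes.

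The superoxide dismutases showed different patterns. Sod1, the copper-zinc dismutase of the cytosol and the mitochondrial intermembrane space (chr16:90220754-90226329, plus strand), had 36.5, 36.7, 33.2, 41.7 and 36.9 FPKM in PAMH replicates 1 to 5, against 30.7, 33.9, 32.3, 30.8 and 28.3 FPKM in control replicates 1 to 5. The groups overlapped only through PAMH replicate 3, which lay below control replicate 2, and the means were 37.0 ± 3.07 FPKM in PAMH and 31.2 ± 2.06 FPKM in control hearts (SD, n = 5 each). The log2 difference was 0.24 (SE 0.08), or 0.14 with median ratio scaling and 0.11 with quantile normalization. Without PAMH replicate 3 it was 0.27. Sod2, the manganese dismutase of the mitochondrial matrix (chr17:13006846-13040063, plus strand), had 35.2, 35.4, 30.3, 37.2 and 31.6 FPKM in PAMH replicates 1 to 5, against 34.8, 37.2, 32.4, 34.4 and 32.7 FPKM in control replicates 1 to 5. Its groups lay over each other, at 33.9 ± 2.86 FPKM in PAMH and 34.3 ± 1.90 FPKM in control hearts (SD, n = 5 each), and its log2 difference of -0.02 (SE 0.07) ran from -0.15 with quantile normalization to 0.03 with every sample set to the same FPKM sum. Its sign also turned without single samples, to 0.02 without PAMH replicate 3, 0.01 without PAMH replicate 5 and 0.01 without control replicate 2. Sod1 has a processed pseudogene on chromosome 6, Gm8566, with 98.0% identity over 298 bases, but that copy averaged 1.05 FPKM.

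Cat encodes catalase, an enzyme found chiefly in peroxisomes (chr2:103453849-103485160, minus strand). It had 66.7, 66.4, 49.0, 54.2 and 56.0 FPKM in PAMH replicates 1 to 5, against 51.5, 56.1, 49.9, 49.9 and 49.4 FPKM in control replicates 1 to 5. PAMH replicates 1 and 2 stood above all controls, while PAMH replicate 3 was the lowest of the 10 samples. The means were 58.5 ± 7.85 FPKM in PAMH and 51.4 ± 2.79 FPKM in control hearts (SD, n = 5 each), with a log2 difference of 0.18 (SE 0.09), or 0.04 with quantile normalization. Without PAMH replicate 3 the difference was 0.24.

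The 3 glutathione peroxidases and the thioredoxin reductase are selenoproteins. A selenoprotein carries selenocysteine, inserted at a TGA codon that would otherwise end translation. The coding bases around these codons are printed because the selenocysteine is the residue at which these enzymes react. They come from the GENCODE vM21 transcripts, 5′ to 3′ on GRCm38, with the annotated selenocysteine codon in capitals. In Txnrd2 the codon is followed by 2 codons, the last of them the stop.
Gpx1, chr9:108339451-108339453: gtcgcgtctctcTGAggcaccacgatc
Gpx3, chr11:54907256-54907258: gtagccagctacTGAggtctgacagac
Gpx4, chr10:80054737-80054739: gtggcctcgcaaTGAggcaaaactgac
Txnrd2, chr16:18477772-18477774: ggttgcTGAggctaa

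Gpx1, the glutathione peroxidase of cytosol and mitochondria (chr9:108338903-108340343, plus strand), had 29.4, 29.0, 26.2, 28.9 and 29.8 FPKM in PAMH replicates 1 to 5, against 29.1, 28.2, 28.7, 27.3 and 25.2 FPKM in control replicates 1 to 5. The groups covered nearly the same range, at 28.6 ± 1.41 FPKM in PAMH and 27.7 ± 1.56 FPKM in control hearts (SD, n = 5 each). The log2 difference was 0.05 (SE 0.07) and ran from -0.08 with quantile normalization to 0.09 with equal FPKM sums. Left out singly, PAMH replicate 3 gave 0.08, PAMH replicate 5 gave 0.03 and control replicate 5 gave 0.01.

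Gpx3, which encodes the secreted glutathione peroxidase of plasma (chr11:54902453-54910377, plus strand), differed most in size. It had 107, 103, 40.7, 99.2 and 122 FPKM in PAMH replicates 1 to 5, against 62.3, 70.6, 63.7, 62.4 and 66.6 FPKM in control replicates 1 to 5. Of the PAMH samples 4 lay above every control and PAMH replicate 3 lay below every control. The means were 94.3 ± 31.2 FPKM in PAMH and 65.1 ± 3.50 FPKM in control hearts (SD, n = 5 each). The log2 difference was 0.44 (SE 0.23) with all samples and 0.71 (SE 0.07) without PAMH replicate 3. In PAMH replicate 3 the fibroblast markers (8 genes) summed to 284 FPKM, where the other PAMH samples had 326 to 402 FPKM and controls had 332 to 368 FPKM, and the cardiomyocyte markers were also lowest there. None of the 8 fibroblast markers passed the limma test, and 0 had an unadjusted p under 0.05. Marker sums of other cell types were the highest of all 10 samples in PAMH replicate 3, though at low levels. These were 7.38 FPKM for epicardial and mesothelial markers and 1.44 FPKM for adipocyte markers. The part of any of these cell types in the low Gpx3 of that sample was not tested.

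Gpx4, the phospholipid hydroperoxide glutathione peroxidase that limits lipid peroxidation (chr10:80047166-80056439, plus strand), was the only one of the 9 enzyme genes whose groups did not overlap. It had 279, 270.5, 271, 334 and 295 FPKM in PAMH replicates 1 to 5, against 261, 259, 259.6, 241 and 262 FPKM in control replicates 1 to 5. The gap between the groups was small, and the highest value was that of PAMH replicate 4, the sample with the lowest implied depth. The means were 289.9 ± 26.5 FPKM in PAMH and 257 ± 8.86 FPKM in control hearts (SD, n = 5 each), with a log2 difference of 0.17 (SE 0.07), 0.07 with median ratio scaling and 0.01 with quantile normalization. Of all tested genes 8.44% had groups that did not overlap. A transcribed processed pseudogene on the same chromosome, Gpx4-ps2 (chr10:45875291-45876086, plus strand), has 99.7% identity over 733 bases, so reads of the gene and the copy cannot be fully told apart. Gpx4-ps2 was listed at 112, 115, 102, 141 and 132 FPKM in PAMH replicates 1 to 5, against 101, 106, 102, 95.8 and 109 FPKM in control replicates 1 to 5. Added together, an option chosen after seeing the data, gene and copy averaged 410.2 ± 41.3 FPKM in PAMH and 359.6 ± 13.3 FPKM in control hearts (SD, n = 5 each). The log2 difference of that sum was 0.18 and its groups did not overlap either.

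Txnrd2, the mitochondrial thioredoxin reductase (chr16:18426384-18479073, plus strand), had 4.84, 4.35, 3.30, 3.97 and 5.11 FPKM in PAMH replicates 1 to 5, against 4.06, 5.0, 3.96, 3.64 and 3.96 FPKM in control replicates 1 to 5. The groups overlapped over most of their range, at 4.32 ± 0.718 FPKM in PAMH and 4.12 ± 0.513 FPKM in control hearts (SD, n = 5 each), with a log2 difference of 0.05 (SE 0.10). Single samples moved or turned it, to 0.12 without PAMH replicate 3, 0.01 without PAMH replicate 1, -0.01 without PAMH replicate 5, 0.11 without control replicate 2 and 0.01 without control replicate 4.

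The mitochondrial peroxiredoxins, which reduce hydrogen peroxide with electrons from thioredoxin, were among the most abundant of the 10 genes. Prdx3, the peroxiredoxin of the mitochondrial matrix (chr19:60864051-60874556, minus strand), had 167, 159, 147, 161 and 169 FPKM in PAMH replicates 1 to 5, against 148, 137, 145, 142 and 149 FPKM in control replicates 1 to 5. PAMH replicate 3 alone fell within the control range, and the means were 161 ± 8.61 FPKM in PAMH and 144 ± 4.74 FPKM in control hearts (SD, n = 5 each). The log2 difference was 0.15 (SE 0.06), or 0.05 with quantile normalization and 0.18 without PAMH replicate 3. Prdx5, present in mitochondria, peroxisomes and cytosol (chr19:6906697-6910106, minus strand), had 106, 100, 89.1, 116 and 107 FPKM in PAMH replicates 1 to 5, against 92.9, 96.8, 97.6, 90.2 and 89.3 FPKM in control replicates 1 to 5. Of its PAMH samples 4 lay above every control and PAMH replicate 3 below every control. The means were 104 ± 10 FPKM in PAMH and 93.4 ± 3.76 FPKM in control hearts (SD, n = 5 each), with a log2 difference of 0.15 (SE 0.08), or 0.03 with quantile normalization. Without PAMH replicate 3 the Prdx5 difference was 0.20. Prdx5 shares 409 exonic bases with Trmt112 on the opposite strand, which averaged 6.24 FPKM.

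Across the 10 genes, 0 passed an adjusted p of 0.05 in the fit to all genes and 3 had an unadjusted p under 0.05. In the same fit 6.19% of the 9439 genes passed, 4.95% as higher and 1.24% as lower in PAMH hearts, and 24.0% had an unadjusted p under 0.05. Without PAMH replicate 3, 3 of the 10 passed (Sod1, Gpx3 and Prdx3), beside 1126 of all 9431 genes tested there. With sample weights 1 passed (Sod1), beside 1214 of 9439 genes. Without PAMH replicates 3 and 4 together 3 passed (Cat, Gpx3 and Prdx3), beside 1152 of 9433 genes. Nothing is read from the members' counts, because the members were chosen by this contrast. The log2 difference was positive for 8 of the 9 enzyme genes, with a median of 0.15 and a range of -0.02 to 0.44, where 67.3% of all tested genes were positive and their median was 0.07. Both medians moved with the scaling. With quantile normalization the median of the 9 genes was 0.03 and that of all genes 0, and with median ratio scaling that of the 9 genes was 0.06 and that of all genes -0.0039. Both scalings lowered the median of all genes too, and under both Sod2, Gpx1 and Txnrd2 were negative. PAMH replicate 3 was the lowest PAMH sample in 8 of the 9 genes, a share of 88.9%, against 33.7% of all tested genes, and it was the lowest of all 10 samples for Sod2, Cat, Gpx3, Prdx5 and Txnrd2. Without it the median of the 9 genes was 0.19 and that of all genes 0.09, and the calls over all genes grew to 1126 where all samples gave 584.

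**Figure D3:**
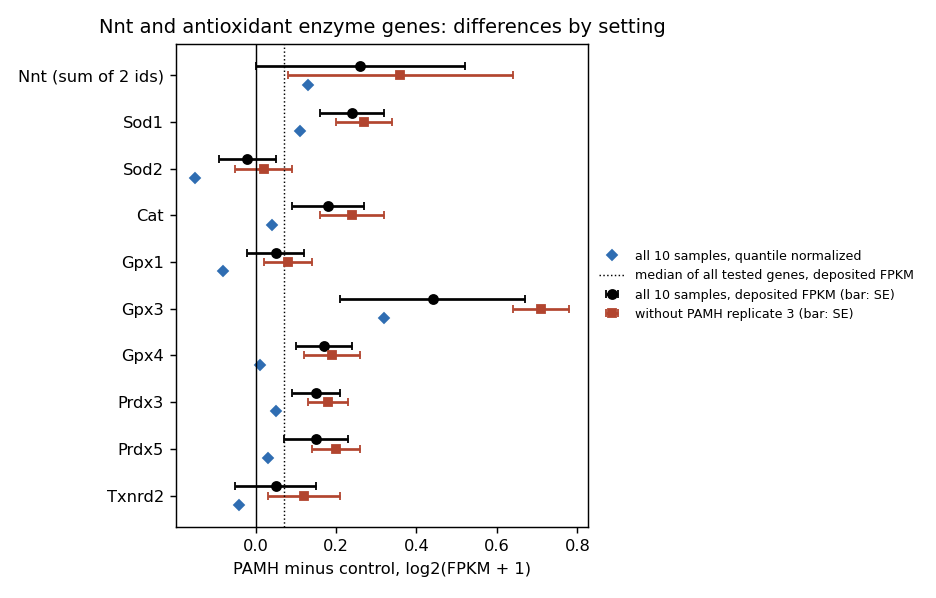
Difference between PAMH and control hearts in log2(FPKM + 1) for the summed Nnt and the 9 enzyme genes, from all 10 samples (circles, bars are SE), without PAMH replicate 3 (squares, bars are SE) and from all samples after quantile normalization (diamonds, no error drawn). The dotted line is the median of all tested genes; quantile normalization moves each of the 10 values to the left, and Gpx3 moves to 0.71 without PAMH replicate 3.

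In bulk tissue, fewer cells of a type and less RNA per cell cannot be told apart, and marker sums of some cell types also moved with the groups. The 8 smooth muscle and pericyte markers summed to 155 to 206 FPKM in PAMH and 112 to 147 FPKM in control hearts, with 1 of 7 tested (Acta2) higher. The higher sum is not shared by the list, since 3 of these 8 markers had a higher mean in PAMH hearts and the other 5 did not. The 8 macrophage markers summed to 113 to 139 FPKM in PAMH and 98.3 to 113 FPKM in control hearts, with 1 of 7 tested (Cd68) higher and 6 of the 8 means higher in PAMH hearts. The 8 endothelial markers summed to 103 to 118 FPKM in PAMH and 115 to 154 FPKM in control hearts, and 0 of the 8 passed (3 at an unadjusted p under 0.05), with 3 of the 8 means higher in PAMH hearts. The 6 epicardial and mesothelial markers summed to 2.85 to 7.38 FPKM in PAMH and 0.404 to 1.21 FPKM in control hearts, with the 1 tested (Upk3b) higher and all 6 means higher in PAMH hearts. The 7 adipocyte markers summed to 0 to 1.44 FPKM in PAMH and 0.0682 to 0.584 FPKM in control hearts, and Lep was listed at 0 in all samples. The part of these cell types in the values above was not tested.

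The genes around the 10 enzymes were tested, since the rule did not name them. The 11 lists by function held 150 other genes of NADPH supply, thiol and glutathione systems, selenoprotein synthesis, reactive oxygen sources and their regulators. Of the 123 that passed the filter 9 were higher in PAMH hearts, 6 were lower and 108 did not pass the test, where 4.95% of all genes were higher and 1.24% lower. The lists were drawn up with some of these results known, including 5 of the 6 lower genes (Txnip, Chac1, Ucp3, Foxo1 and Foxo3), so their count of lower genes is partly set by how they were chosen and is no independent evidence. Their median log2 difference was 0.09 and 80 of the 123 were positive, against 0.07 and 67.3% over all genes. Without PAMH replicate 3 the count grew to 24 (18 higher, 6 lower), as it did with sample weights, and it was 9 without control replicate 3 and 9 without control replicate 5.

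Among selenoprotein genes outside the 10, Sephs2 and Msrb1 were higher in PAMH hearts. The annotation marks a selenocysteine codon in 24 genes of the table. Of the 18 that passed the filter, 4 belong to the 10 and 14 do not, and of those 14 there were 2 higher, 0 lower and 12 that did not pass, with a median log2 difference of 0.14 and 10 positive. Sephs2 encodes selenophosphate synthetase 2, which makes the selenium donor for selenocysteine and is itself a selenoprotein. It had 12.6, 11.7, 9.50, 11.8 and 12.7 FPKM in PAMH replicates 1 to 5, against 7.55, 6.44, 6.09, 6.89 and 6.71 FPKM in control replicates 1 to 5. Every PAMH value lay above every control value, and the log2 difference was 0.71 (SE 0.09, limma adjusted p = 0.00145). Msrb1, a selenoprotein that reduces oxidized methionine, had 67.3, 67.9, 59.7, 64.0 and 68.0 FPKM in PAMH replicates 1 to 5, against 51.5, 48.2, 48.2, 52.0 and 50 FPKM in control replicates 1 to 5. Its groups did not overlap either, and its log2 difference was 0.38 (SE 0.06, limma adjusted p = 0.00595). Both calls held in all 20 other settings run. Sephs2 shares 792 exonic bases with Gm44729 on the opposite strand, which averaged 0.0245 FPKM. The selenocysteine codons of these genes are printed for comparison with those of the 4 enzymes, in the same way.
Msrb1, chr17:24740158-24740160: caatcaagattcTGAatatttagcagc
Sephs2, chr7:127273731-127273733, minus strand: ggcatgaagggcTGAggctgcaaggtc

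The other selenoproteins gave no call, with Selenof (log2 difference 0.23, limma adjusted p = 0.0639) nearest the threshold, named after its values were seen. The list of selenoprotein synthesis and other selenoproteins, which also holds genes without selenocysteine, had 3 higher, 0 lower and 14 not passing among 17 tested. The higher gene besides Sephs2 and Msrb1 was Scly, selenocysteine lyase, which releases selenium from selenocysteine, at 2.59 ± 0.136 FPKM in PAMH and 1.95 ± 0.108 FPKM in control hearts (SD, n = 5 each; limma adjusted p = 0.0217). That call was lost in 7 of 19 other settings, with limma adjusted p up to 0.0809, among them median ratio scaling, quantile normalization and omission of control replicate 1, 3, 4 or 5. Secisbp2, which binds the selenocysteine insertion element of the messenger, had 2.15 ± 0.394 FPKM in PAMH and 1.78 ± 0.270 FPKM in control hearts and did not pass (limma adjusted p = 0.305).

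**Figure D4:**
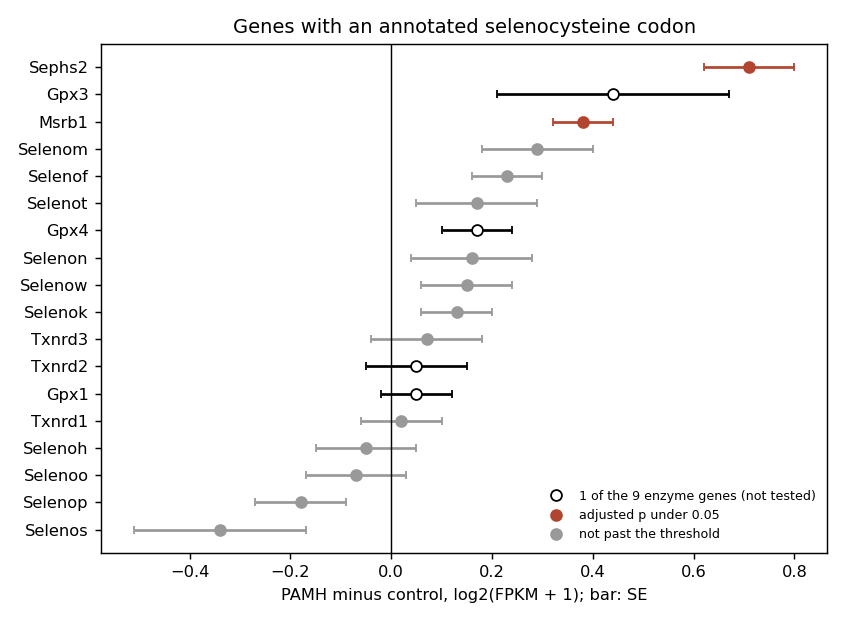
Difference between PAMH and control hearts in log2(FPKM + 1), with SE bars, for the 18 tested genes with an annotated selenocysteine codon. Open circles are the 4 enzymes described above without a test, and Sephs2 and Msrb1 are the 2 of the 14 others that passed the test.

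No gene of NADPH supply passed the test. In the mitochondrial list 4 of 8 genes were tested, with a median log2 difference of 0.04, and 0 had an unadjusted p under 0.05 in limma. Idh2, the mitochondrial isocitrate dehydrogenase that makes NADPH beside Nnt, had 338, 348, 269, 300.5 and 323 FPKM in PAMH replicates 1 to 5, against 283, 325, 297, 292 and 264 FPKM in control replicates 1 to 5. The groups overlapped and the log2 difference was 0.11 (SE 0.08, limma adjusted p = 0.455). Me3, the mitochondrial malic enzyme, had a log2 difference of -0.02 (limma adjusted p = 0.893). Nadk2, the mitochondrial NAD kinase, had one of 0.26 (SE 0.20, limma adjusted p = 0.467), with control replicate 1 at 2.56 FPKM and the other control samples at 6.54 to 7.78 FPKM. Without control replicate 1 its difference was 0.03. In the cytosolic list 10 of 11 genes were tested, 9 were positive with a median of 0.16, and 3 had an unadjusted p under 0.05. Its member G6pdx, the entry enzyme of the pentose phosphate pathway, had a log2 difference of 0.05 (limma adjusted p = 0.729).

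In the list of other peroxiredoxins and the thioredoxin system 1 of 17 tested genes was higher, 2 were lower and 14 did not pass. Glrx, glutaredoxin 1, which removes glutathione from protein thiols, had 5.95, 5.42, 5.14, 5.42 and 6.12 FPKM in PAMH replicates 1 to 5, against 4.05, 3.62, 3.78, 3.63 and 3.64 FPKM in control replicates 1 to 5. No PAMH value lay below a control value, and the log2 difference was 0.48 (SE 0.07, limma adjusted p = 0.00284). Txnip, which binds and inhibits thioredoxin, had 42.4, 57.7, 59.2, 55.1 and 61.6 FPKM in PAMH replicates 1 to 5, against 182, 150.2, 152, 180.0 and 141 FPKM in control replicates 1 to 5. All PAMH values were far below all control values (log2 difference -1.53, SE 0.11, limma adjusted p = 2.84e-05), a fall that was known when the lists were drawn up. Sesn1, a sestrin induced by p53 and FOXO factors, was lower at 22.1 ± 3.30 FPKM in PAMH and 30.7 ± 2.2 FPKM in control hearts (SD, n = 5 each; log2 difference -0.46, limma adjusted p = 0.0192), and its call was lost in 5 of 20 other settings, among them omission of control replicate 1, 3, 4 or 5 (limma adjusted p up to 0.0625). The cytosolic peroxiredoxins Prdx1, Prdx2 and Prdx6 did not pass, with log2 differences of 0.02, 0.16 and 0.25, and neither did Txn2 and Txnrd1, at 0.08 and 0.02.

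Of 15 tested glutathione peroxidases and transferases outside the 10, 2 were higher, 0 were lower and 13 did not pass. Mgst1, a membrane-bound glutathione transferase of the endoplasmic reticulum and outer mitochondrial membrane, had 25.9, 25.4, 29.0, 22.2 and 33.5 FPKM in PAMH replicates 1 to 5, against 12.3, 13.5, 11.4, 15.3 and 16.7 FPKM in control replicates 1 to 5. The groups did not overlap, the log2 difference was 0.93 (SE 0.12, limma adjusted p = 0.00190) and the call held in all 20 other settings. Gstm1, a cytosolic glutathione transferase, averaged 87.2 ± 19.2 FPKM in PAMH and 54.8 ± 5.27 FPKM in control hearts (SD, n = 5 each; log2 difference 0.64, limma adjusted p = 0.0224). Its PAMH replicate 3, at 57.9 FPKM, lay among the controls. Its call was lost in 8 of 20 other settings (limma adjusted p up to 0.0894), among them omission of PAMH replicate 1 or 2 or of control replicate 1, 3, 4 or 5. Gstm1 belongs to a family of similar genes, between which reads may have been divided.

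Glutathione synthesis, reduction and transport had 1 of 11 tested genes lower, 0 higher and 10 not passing. The lower one was Chac1, an enzyme that degrades glutathione and is induced by stress of the endoplasmic reticulum, already known to be low from earlier results of these data. It had 1.32, 1.03, 1.85, 1.31 and 0.969 FPKM in PAMH replicates 1 to 5, against 3.75, 3.51, 2.05, 3.77 and 2.70 FPKM in control replicates 1 to 5, with no overlap (log2 difference -0.85, SE 0.14, limma adjusted p = 0.00581). The synthesis genes Gclc and Gclm had log2 differences of -0.17 and -0.14 and the reductase gene Gsr one of 0.09, none of which passed. The list of superoxide and copper handling had 0 of 7 past the threshold in limma (2 at an unadjusted p under 0.05), with a median of 0.10. Its extracellular dismutase gene Sod3 had 5.36 ± 1.06 FPKM in PAMH and 4.31 ± 0.541 FPKM in control hearts (SD, n = 5 each; limma adjusted p = 0.192). In the list of methionine sulfoxide reductases Msrb1 was the 1 of 4 that was higher, 0 were lower, and 3 did not pass.

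NRF2 is the transcription factor that induces many antioxidant genes under oxidative stress, and of 25 tested genes of its regulators and targets 2 were higher, 0 were lower and 23 did not pass, with a median log2 difference of 0.03. Fth1, ferritin heavy chain, averaged 300 ± 31.2 FPKM in PAMH and 232 ± 18.3 FPKM in control hearts (SD, n = 5 each; limma adjusted p = 0.0265). Ephx1, microsomal epoxide hydrolase, averaged 14.9 ± 2.28 FPKM in PAMH and 10.9 ± 1.03 FPKM in control hearts (SD, n = 5 each; limma adjusted p = 0.0383). The calls were lost in 10 and 11 of 20 other settings, with limma adjusted p up to 0.0778 and 0.104. For both these included median ratio scaling and omission of PAMH replicate 1, 2 or 5 or of control replicate 1, 3, 4 or 5. The gene of NRF2 itself, Nfe2l2, its inhibitor gene Keap1 and the targets Hmox1 and Nqo1 did not pass, with log2 differences of 0.04, 0.20, 0.13 and 0.03. The metallothionein genes Mt1 and Mt2 had log2 differences of -0.25 and -0.38 and did not pass either. They were -0.12 and -0.16 without PAMH replicate 2.

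Among sources of reactive oxygen and uncoupling 1 of 11 tested genes was lower, 0 were higher and 10 did not pass. This was Ucp3, an inner-membrane carrier of muscle mitochondria and also known from earlier results, with 3.54, 3.22, 2.69, 3.90 and 3.04 FPKM in PAMH replicates 1 to 5, against 9.67, 16.8, 9.02, 17.1 and 11.5 FPKM in control replicates 1 to 5. Its groups lay far apart (log2 difference -1.65, SE 0.16, limma adjusted p = 0.000379). Ucp2 did not pass (log2 difference -0.10), and Nox4, an NADPH oxidase gene, was listed at 0 to 0.0491 FPKM in PAMH and 0.0205 to 0.0717 FPKM in control hearts, below the filter. Of 10 tested FOXO and PGC1 regulators, 1 was higher, 2 were lower and 7 did not pass. Esrra, the orphan receptor that works with PGC1 on mitochondrial genes, had 28.0, 27.8, 25.1, 33.3 and 27.0 FPKM in PAMH replicates 1 to 5, against 18.2, 21.4, 19.8, 20.7 and 20.6 FPKM in control replicates 1 to 5 (log2 difference 0.46, SE 0.08, limma adjusted p = 0.00808). Foxo3 was lower at 7.73 ± 0.832 FPKM in PAMH and 11 ± 1.11 FPKM in control hearts, and Foxo1 at 1.75 ± 0.151 FPKM in PAMH and 2.45 ± 0.233 FPKM in control hearts (SD, n = 5 each; limma adjusted p = 0.0126 and 0.0222). The call of Foxo1 was lost in 5 of 19 other settings (limma adjusted p up to 0.0711), among them omission of PAMH replicate 5 or of control replicate 3 or 5. Both falls were known from earlier results.

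**Figure D5:**
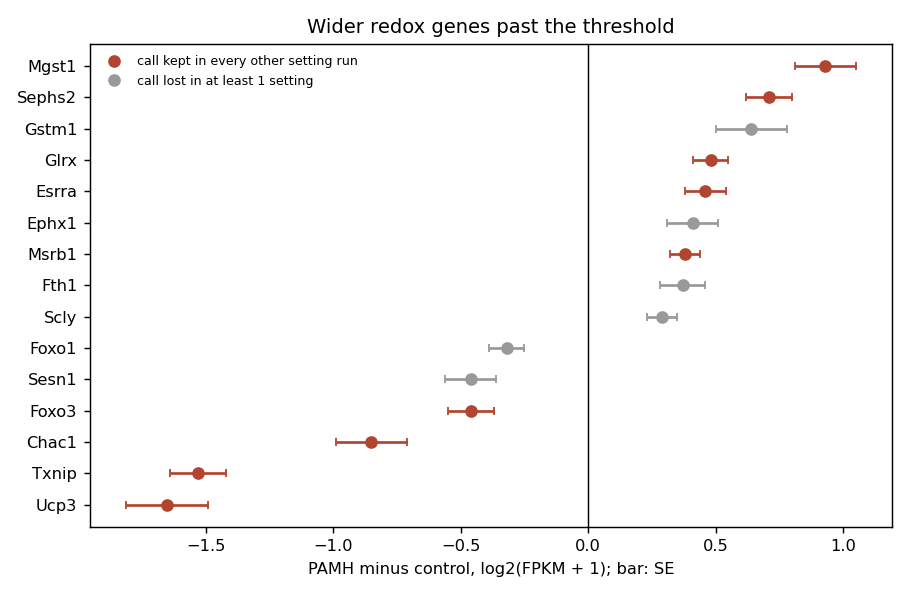
Difference between PAMH and control hearts in log2(FPKM + 1), with SE bars, for the 15 genes of the wider redox lists that passed the test. Red marks the 9 genes whose call held in every other setting in which they were tested, and grey the 6 whose call was lost in at least 1; Mgst1 at 0.93 and Ucp3 at -1.65 are the ends of the range.

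The genes whose values most resembled those of the summed Nnt were found by Pearson correlation over the 10 samples after each group's mean was removed. Only tested genes were ranked, and those with the symbol of a predicted gene were left out. The first 5 were Foxo1, with r = 0.941, Lsg1 with 0.897, Arfgap2 with 0.893, Idua with 0.886 and Atxn7l3 with 0.869. Without removal of the group means their r were 0.138, 0.837, 0.658, 0.890 and 0.790. The first set are the highest r of all genes ranked, so their size is partly set by that search, and they were not tested. Foxo1 itself was lower in PAMH hearts, while the Nnt sum overlapped between the groups. All these values share the same 10 libraries, in which PAMH replicate 1 and control replicate 2 were far above the rest for Nnt, and which 5 genes came first varied with the setting. Of the 9 enzyme genes Txnrd2 (0.69) and Cat (0.64) had the highest such r with Nnt, and Gpx4 (0.04) and Prdx3 (0.01) the lowest.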

How the data were processed

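The FPKM table of 55335 Ensembl genes and 10 samples was used as the authors deposited it. The submitters' processing notes name DESeq2 1.18.1, HTSeq 0.13.5, HISAT2 2.2.1, FastQC 0.11.9, R 3.4.1 and Trimmomatic 0.38, and the build mm10. Which of these gave the FPKM, with what annotation and strand setting, and how reads matching several places were treated is not given in the sources used here. Symbols, coordinates, transcripts and selenocysteine codons came from GENCODE vM21, which holds 55154 of the identifiers. Low FPKM of single-transcript genes lay on steps that give relative depth, but only 22.6% to 39.8% of these values were within 0.05 of a whole step (10% if unspaced), so reads were not recovered and no count model was used.

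FPKM were transformed to log2(FPKM + 1). The 9439 genes averaging 1 FPKM or more were fitted with limma 3.58.1 in R 4.3.3 (group term, intensity trend, 2-sided, Benjamini-Hochberg, threshold 0.05). For the Nnt sum, the sum took the place of the identifiers in the fit. The procedure was tested on simulated data. The 10 genes and the gene lists were chosen with earlier results of these data known. Named genes were the 10, every gene of the lists past the threshold, a panel chosen by function and the 5 genes most like Nnt. Predicted genes were left out of that last ranking. Alternatives were pseudocount 0.1, no filter, a filter at 5 FPKM, 3 scalings, robust empirical Bayes, sample weights, a replicate block and omission of each sample. Omission of PAMH replicates 3 and 4 together and the sum of Gpx4 with Gpx4-ps2 were chosen after seeing the data. Python 3.11.15 with matplotlib 3.10.9 drew the figures.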

Additional observations from a re-analysis of the deposited data

Results flagged for a closer look

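Of 98 groups of 5 samples examined for a single value far from the rest, 7 (7.14%) had one, where chance gives about 1 in 20. The summed Nnt stood out in PAMH replicate 1, at 116 FPKM with the other PAMH samples at 56.2 to 73.3 FPKM. It also stood out in control replicate 2, at 118 FPKM with the other controls at 41.9 to 63.4 FPKM. In the same control sample the identifier ENSMUSG00000116207 had 115 FPKM and was listed at 0 in the other controls. PAMH replicate 3 was low for Gpx1, at 26.2 FPKM with the other PAMH samples at 28.9 to 29.8 FPKM, and for Gpx3, at 40.7 FPKM with the other PAMH samples at 99.2 to 122 FPKM. Control replicate 4 was low for Gpx4, at 241 FPKM with the other controls at 259 to 262 FPKM. Control replicate 1 was low for Nadk2, at 2.56 FPKM with the other controls at 6.54 to 7.78 FPKM.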

How the results depend on the processing

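The number of called genes, 584 with all samples, was 264 without a filter, 1214 with sample weights, 274 to 1126 when single samples were left out (1126 without PAMH replicate 3, and 274 to 342 without PAMH replicate 1 or 5 or control replicate 1, 3, 4 or 5) and 1152 without PAMH replicates 3 and 4 together. With median ratio scaling 218 were higher and 212 lower, and with quantile normalization 234 and 246, against 467 and 117 in the deposited scale. The wider redox lists had 15 calls, and 24 with sample weights, 9 to 24 with single samples left out and 23 without PAMH replicates 3 and 4 together (7 higher and 8 lower with quantile normalization). Replicate numbers did not pair the samples, with correlations of -0.195 to 0.16 between same-numbered samples, of which 1 and 2 matched best with their own number. The replicate block left 239 calls over all genes and 10 in the redox lists. Of the 5 genes most like Nnt, 2 were among the top 5 without a filter, 1 with the filter at 5 FPKM, 2 with median ratio scaling, 1 with quantile normalization and 1 to 3 with single samples left out.

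Genes far from the threshold turned sign. With median ratio scaling these were G6pdx (-0.01), Nfe2l2 (-0.05), Nqo1 (-0.07), Prdx1 (-0.07), Txn2 (-0.01) and Txnrd1 (-0.06). With quantile normalization they were Idh2 (-0.03), Nfe2l2 (-0.08), Nqo1 (-0.11), Prdx1 (-0.11), Txn2 (-0.04) and Txnrd1 (-0.07). Me3 was 0.01 with equal FPKM sums, and Prdx1 -0.08 with sample weights and -0.03 without PAMH replicates 3 and 4 together. With single samples left out, Me3 ran from -0.06 to 0.02, Nfe2l2 from -0.00 to 0.09, Nqo1 from -0.01 to 0.11, Prdx1 from -0.08 to 0.12, Txn2 from -0.02 to 0.15, Txnrd1 from -0.01 to 0.08 and Ucp2 from -0.21 to 0.04. The cause was not tested. Among Nnt and the 9 enzyme genes, described without a test, positive differences were found for 9 of the 10 in the deposited scale, 10 with equal FPKM sums and 7 with median ratio scaling or quantile normalization. Depth differed between samples, no read counts are known, and values listed at 0 give no bound.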
